A study of Homo sapiens with 10 samples.

Results

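The 10 genes described here carry out or control the synthesis of fatty acids in human cells. They were taken by gene symbol (ACLY, ACACA, FASN, SCD, ELOVL6, FADS1, FADS2, ACSS2, LPIN1 and SREBF1) from a table of 46427 genes, and all 10 were found. Each had at least 1105 reads in every library and passed the filter on low counts in every test. The set is not made of enzymes alone, since SREBF1 encodes a transcription factor. RNA of 10 cultures was sequenced to study what drug resistance and growth in suspension change in lung cancer cells. H460 and A549, both established human lung cancer cell lines, were used. The H460 libraries were 3 of untreated cells in 2-dimensional (2D) culture, called parental, 1 of cells that survived cisplatin (CR), 2 of cells that survived paclitaxel (PR), 1 of cells that survived doxorubicin (DR), and 1 of tumor spheroid (TS) cells. The A549 libraries were 1 of 2D culture and 1 of TS cells. CR, PR and DR cells were those that attached again after treatment and a time in fresh medium, and they are called drug-resistant here. They came from the same line as their controls and are a surviving fraction, not a cloned line. TS cells, which the labels name CTC after the culture method, were grown on a non-adhesive coating in a medium with B27 supplement and growth factors. The 2D medium held fetal bovine serum, and no serum is listed for the TS medium. Attachment and medium, serum included, thus changed together and cannot be told apart. No label says that replicate libraries came from separate cultures, so the p-values measure only the spread between these libraries, which may be technical.

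Cells build fatty acids in the cytosol from acetyl-CoA, and fast-growing cancer cells are known for making their own. ACLY cuts citrate from the mitochondria into acetyl-CoA, and ACSS2 makes acetyl-CoA from acetate. ACACA turns it into malonyl-CoA, and FASN joins these units into palmitate. ELOVL6 lengthens palmitate, SCD puts a double bond into saturated chains, and FADS1 and FADS2 put further double bonds into polyunsaturated chains. LPIN1 makes diacylglycerol, into which the chains are built. SREBF1 encodes SREBP-1, a membrane-bound factor that is released to the nucleus when INSIG proteins no longer hold it back and that turns on the genes of this pathway. Its relative SREBP-2, from SREBF2, mainly turns on cholesterol synthesis.

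The genes lie on 6 chromosomes (GENCODE 29, GRCh38). ACLY (chr17:41866908-41930542), ACACA (chr17:37084988-37406818), FASN (chr17:82078333-82098332) and SREBF1 (chr17:17810399-17837002) are on the minus strand of chromosome 17. SCD (chr10:100347124-100364834), ACSS2 (chr20:34872146-34927962) and LPIN1 (chr2:11677595-11827409) are on plus strands, and ELOVL6 (chr4:110045846-110199199) is on a minus strand. FADS1 (chr11:61799625-61829318, minus strand) and FADS2 (chr11:61792980-61867354, plus strand) overlap, with 490 exonic bases in common. SREBF1 shares 556 exonic bases with RAI1 on the opposite strand. Since the strand setting of the counting is not given in the sources used here, reads from such stretches cannot be assigned with certainty. The pseudogene SCDP1, a copy of SCD, had at most 0.133 FPKM in any library.

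RefSeq promoter windows (GRCh38.p14) of 250 bases before to 50 bases after a transcript start were held for all genes but FASN, 9 of the 10, in 16 windows. The 4 printed here belong to the genes the results turn on. SCD was high in TS and low in drug-resistant cells, ACLY lay on opposite sides of the 2D level in the TS cells of the 2 lines, and FADS1 and FADS2 start close together on opposite strands but differed in H460 TS cells. Each is written 5′ to 3′ on the gene's own strand, and capitals mark CCAAT or GGGCGG on either strand (ATTGG and CCGCCC are the same motifs read from the other strand).
SCD, chr10:100346983-100347282, plus strand: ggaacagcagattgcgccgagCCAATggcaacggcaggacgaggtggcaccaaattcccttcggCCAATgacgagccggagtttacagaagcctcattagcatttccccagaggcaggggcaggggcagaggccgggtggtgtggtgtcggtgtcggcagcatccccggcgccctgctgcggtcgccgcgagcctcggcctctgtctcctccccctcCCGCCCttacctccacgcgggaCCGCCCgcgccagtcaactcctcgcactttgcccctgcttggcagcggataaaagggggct
ACLY, chr17:41918973-41919272, minus strand: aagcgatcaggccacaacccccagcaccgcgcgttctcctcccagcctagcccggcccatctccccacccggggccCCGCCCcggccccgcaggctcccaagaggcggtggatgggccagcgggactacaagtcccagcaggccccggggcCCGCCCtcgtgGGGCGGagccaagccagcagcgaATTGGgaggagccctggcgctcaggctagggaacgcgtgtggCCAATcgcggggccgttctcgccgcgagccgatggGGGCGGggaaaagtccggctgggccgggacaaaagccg
FADS1, chr11:61816954-61817253, minus strand: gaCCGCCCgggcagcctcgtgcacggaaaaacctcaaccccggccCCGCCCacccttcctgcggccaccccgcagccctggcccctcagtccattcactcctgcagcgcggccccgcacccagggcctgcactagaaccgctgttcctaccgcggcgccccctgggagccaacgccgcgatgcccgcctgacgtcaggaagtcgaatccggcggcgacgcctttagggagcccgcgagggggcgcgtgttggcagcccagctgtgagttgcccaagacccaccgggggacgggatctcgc
FADS2, chr11:61816154-61816453, plus strand: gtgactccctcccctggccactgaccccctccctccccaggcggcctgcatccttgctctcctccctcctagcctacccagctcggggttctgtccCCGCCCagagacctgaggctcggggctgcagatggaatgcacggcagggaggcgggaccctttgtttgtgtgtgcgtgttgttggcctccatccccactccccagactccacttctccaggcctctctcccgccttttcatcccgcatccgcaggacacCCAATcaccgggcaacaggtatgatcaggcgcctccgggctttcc
The RefSeq models of FADS1 and FADS2 overlap at their starts over 801 bases (chr11:61816203-61817003). The FADS1 window lies at one end of that stretch. At the other end lies a FADS2 window that is not printed (chr11:61815953-61816252) and holds neither CCAAT nor GGGCGG. The printed FADS2 window also covers that end but reaches farther into the stretch. Windows of a gene can overlap, as those of ACLY do, so the same match can be counted in more than 1 window. Some genes have several windows, whereas the percentages are per window. GGGCGG, the GC box, was found in 13 of the 16 windows, in all 9 genes with a window, and in 45.0% of 35116 RefSeq windows. CCAAT was found in 7 windows of 5 genes and in 34.6% of all windows. TCACNCCAC, which stands for the core of a sterol regulatory element, was found on neither strand in any of the 16 windows and in 1.13% of all windows. These are matches of letters within a short window and say nothing of binding.

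The libraries held between 59499787 and 89541774 reads assigned to genes, and a member had between 1105 and 157602 of them, so the number of libraries limited the precision more than counting error. KRT8 and KRT18, keratins of epithelial cells, were high in all 10 libraries, with KRT8 at 283 FPKM or more. KRT19, another such keratin, was not: it spanned 138 to 738 FPKM across the H460 libraries. The A549 line held less of it, with 68.3 FPKM for the TS library and only 3.57 for the 2D one. EPCAM was at most 1.04 FPKM in every library, and CDH1 was at most 0.0266 in H460 and was 9.29 and 11.9 in A549 cells. Of the markers of other cell types, CD3E (T cells) was listed at 0 in all libraries but DR, where it was 0.0582. PTPRC (leukocytes) reached 0.157 and PECAM1 (endothelium) 0.0425 FPKM, while CD14 (monocytes) spanned 2.37 to 17.1, and PDGFRB and COL1A1 (fibroblasts) reached 7.06 and 6.51.

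Levels are given as FPKM, fragments scaled to transcript length and library size, which allow genes to be compared per length. In parental H460 cells the desaturase SCD had the highest level of the set (135 ± 14.8 FPKM, mean ± SD, n = 3), above ACLY at 86.8 ± 11.8, without overlap. FASN at 60.1 ± 24.7 and FADS1 at 53.8 ± 8.71 followed and could not be ranked against each other, since FASN spanned 33.5 to 82.3 and so reached into the range of ACLY as well. SREBF1 (29.2 ± 12.7) and FADS2 (22.1 ± 8.63) overlapped, and the lowest FADS2 value lay just under the ACACA range. Lowest were ACACA (13.8 ± 1.25), ELOVL6 (9.95 ± 2.27), ACSS2 (8.30 ± 2.27) and LPIN1 (6.87 ± 0.735), and the last 3 overlapped in part. Together the 10 genes summed to between 397 and 470 FPKM in the parental libraries and to between 210 and 287 in the drug-resistant ones, and the groups did not overlap. H460 TS cells reached a sum of 865. A549 cells had 685 in 2D culture and 1145 as TS cells.

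**Figure D1:**
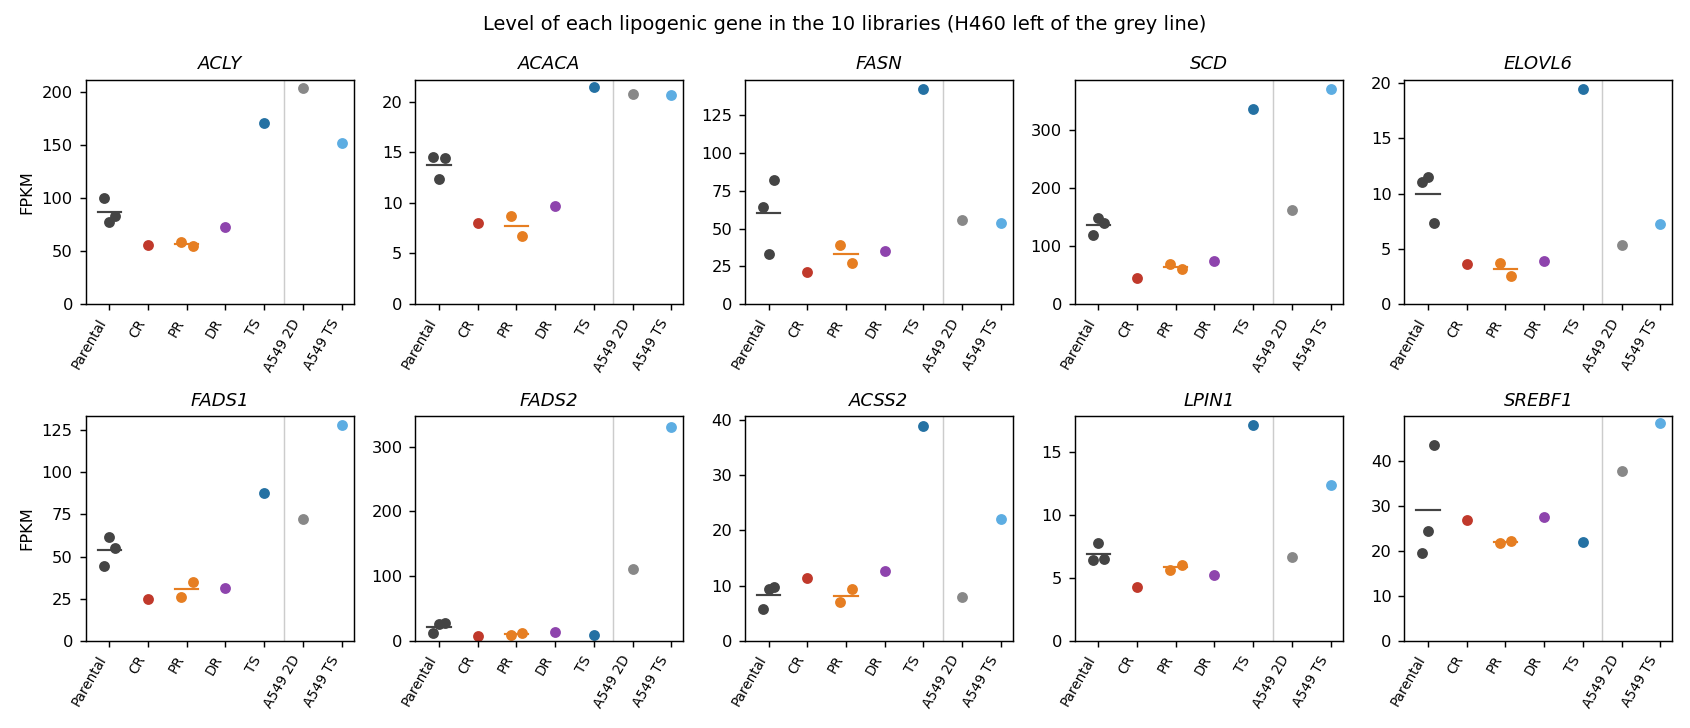
FPKM of each gene (linear axes from 0) in the 10 libraries, 1 point per library, with a bar at the mean of groups with more than 1 library and a grey line between H460 and A549. ACLY, ACACA, SCD, ELOVL6, FADS1 and LPIN1 were lower in all 4 drug-resistant libraries than in all 3 parental ones, and FADS2 was at 9.07 in H460 TS and at 331 in A549 TS.

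The comparison of 4 drug-resistant with 3 parental libraries asked what cells that survive chemotherapy have in common. Most of the fatty acid synthesis pathway was lower in the survivors. By the quasi-likelihood test of edgeR, 8 of the 10 genes were lower at a Benjamini-Hochberg adjusted p under 0.05 and none was higher. Of all 18398 genes tested, 15.4% were lower, 18.4% higher and 33.8% called in either direction. The median log2 difference was -0.91 over the 10 genes and 0.06 over all genes tested. In FPKM, 6 genes (ACLY, ACACA, SCD, ELOVL6, FADS1, LPIN1) were below every parental library in all 4 drug-resistant ones, which held for 17.5% of 12331 genes with a mean FPKM of at least 1. From bulk RNA, fewer cells of a type and less RNA per cell cannot be told apart.

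In the steps that supply and condense carbon units, ACLY was at 99.98, 77.3 and 83.2 FPKM in parental replicates 1 to 3, and at 56.2 in CR, 58.5 and 54.6 in PR replicates 1 and 2 and 72.9 in DR. DR was the nearest to the parental range, and ACLY fell by 0.63 on the log2 scale (SE 0.20, edgeR adjusted p = 0.0356). ACACA, the committed step, was at 14.5, 12.3 and 14.4 FPKM in parental, 8.00 in CR, 8.73 and 6.77 in PR and 9.69 in DR cells. All 4 were under the lowest parental library, with a log2 difference of -0.82 (SE 0.20, edgeR adjusted p = 0.0101). FASN was at 64.4, 33.5 and 82.3 FPKM in parental, 21.6 in CR, 39.3 and 27.4 in PR and 35.4 in DR cells. Parental replicate 2 lay among the drug-resistant libraries, and the fitted difference of -1.10 had the widest error of the 10 (SE 0.32, edgeR adjusted p = 0.0244). ACSS2, the acetate route to the same product, did not pass the test. It was at 5.69, 9.42 and 9.78 FPKM in parental and at 11.4 in CR, 6.96 and 9.35 in PR replicates 1 and 2 and 12.7 in DR, with a log2 difference of 0.19 (SE 0.28, edgeR adjusted p = 0.628). The groups overlapped, CR and DR lying above the parental range and both PR libraries within it.

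Among the enzymes that lengthen and desaturate the chain, ELOVL6, SCD and FADS2 had the largest differences of the set. SCD was at 119, 147 and 140 FPKM in parental, 45.1 in CR, 68.2 and 59.7 in PR and 74.8 in DR cells. CR was lowest, no library came near the parental range, and the level was 2.37-fold lower (log2 difference -1.24, SE 0.21, edgeR adjusted p = 0.00192). ELOVL6 was at 11.0, 11.5 and 7.34 FPKM in parental and at 3.63 in CR, 3.76 and 2.52 in PR and 3.88 in DR cells. PR replicate 2 was lowest and stood apart from the other 3, and the level was 3.06-fold below the controls (log2 difference -1.61, SE 0.22, edgeR adjusted p = 0.00068). FADS1 was at 44.5, 61.8 and 55.2 FPKM in parental, 24.8 in CR, 26.0 and 35.1 in PR and 31.2 in DR cells, again without overlap (log2 difference -0.997, SE 0.19, edgeR adjusted p = 0.00307). FADS2, its neighbour, was at 12.2, 25.7 and 28.3 FPKM in parental, 7.65 in CR, 9.45 and 11.8 in PR and 14.1 in DR cells. Parental replicate 1 was the lowest control and lay under DR, and FADS2 fell by 1.16 on the log2 scale (SE 0.30, edgeR adjusted p = 0.0142).

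LPIN1 fell the least of the genes that passed. It was at 6.42, 7.72 and 6.48 FPKM in parental, 4.29 in CR, 5.62 and 6.01 in PR and 5.22 in DR cells, with PR replicate 2 just below the lowest control (log2 difference -0.53, SE 0.15, edgeR adjusted p = 0.0238). The transcript of the pathway's own activator, SREBF1, did not pass. SREBF1 was at 19.7, 24.4 and 43.6 FPKM in parental and at 26.9 in CR, 21.9 and 22.3 in PR replicates 1 and 2 and 27.5 in DR, all 4 inside the wide parental range (log2 difference -0.40, SE 0.29, edgeR adjusted p = 0.311). Without parental replicate 3, the highest library, the SREBF1 difference was 0.07 (edgeR adjusted p = 0.803).

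Calls on ACACA, SCD, ELOVL6 and FADS1 held in all 14 alternatives, and the others did not. The ACLY call was lost without CR, parental replicate 1, PR replicate 1 or PR replicate 2 (log2 difference -0.63 to -0.54, edgeR adjusted p between 0.0682 and 0.0995), the FASN call without parental replicate 1 (-1.08, 0.0662), parental replicate 3 (-0.79, 0.0909) or PR replicate 2 (-1.01, 0.0679), the LPIN1 call without CR, DR or parental replicate 2 (-0.55 to -0.48, between 0.0589 and 0.0771) and by limma (-0.33, 0.141), and the FADS2 call without parental replicate 2 (-1.10, 0.0553). Upper-quartile scaling moved the median of all genes from 0.06 to 0.23 and the share of calls that were higher from 54.4% to 67.4%. Under it 6 members remained lower in the edgeR test, and 2031 of the 18398 genes tested were lower (2838 under the main scaling). ACLY (-0.45, edgeR adjusted p = 0.0789) and LPIN1 (-0.36, edgeR adjusted p = 0.106) did not pass.

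The library names in the labels take 2 forms, with and without a hyphen, which divide the libraries. Without a hyphen are PR replicate 1 and parental replicates 1 and 3, and with a hyphen CR, DR, PR replicate 2 and parental replicate 2. In log2(FPKM + 1), 8 members were lower in the drug-resistant cells within both forms, for example SCD by -0.91 and -1.31 and ELOVL6 by -1.07 and -1.54. The share of all genes lower within both forms was not counted, so it is not known whether 8 members exceed it. FASN differed by -0.87 without and -0.27 with a hyphen, against -0.88 over all 7 libraries, and ACSS2 (-0.09 and 0.21) and SREBF1 (-0.41 and 0.06) had opposite signs. With the form as a term of the edgeR model, ACLY (-0.59, adjusted p = 0.0947) and FASN (-0.68, adjusted p = 0.120) were no longer called. The 8 listed markers of leukocytes, endothelium and fibroblasts summed to between 3.84 and 13.9 FPKM in parental and between 17.8 and 30.6 in drug-resistant cells. Of the 4 tested, COL1A1 and VWF were higher, VWF at no more than 0.0782 FPKM in any library. CD14 (2.78 to 9.49 in parental, 11.5 to 17.1 in drug-resistant cells, edgeR adjusted p = 0.072) and PDGFRB (0.862 to 4.23 and 4.24 to 7.06, edgeR adjusted p = 0.0994) did not pass but lay above every parental library. CD3E was at 0 in CR and both PR libraries and PTPRC was at most 0.157. Neither the source of these marker transcripts nor their relation to the lower levels of the lipogenic genes was tested.

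**Figure D2:**
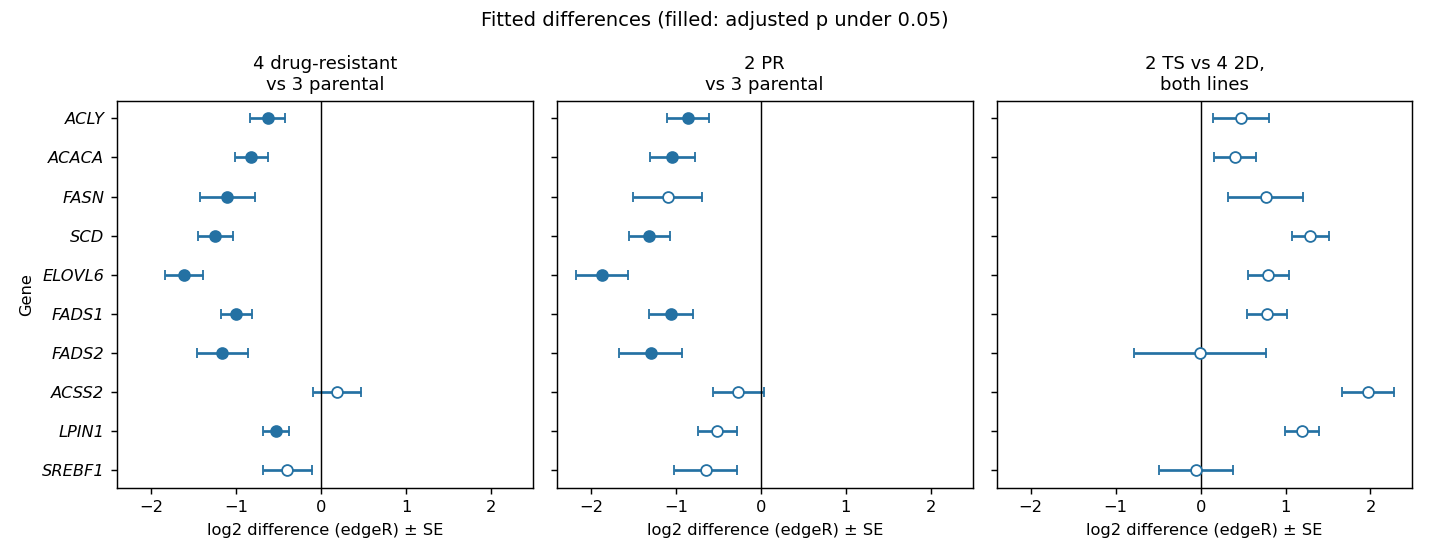
Fitted log2 differences (x axis) of the 10 genes with bars of 1 SE, for 4 drug-resistant against 3 parental libraries, 2 PR against 3 parental libraries, and 2 TS against 4 2D libraries of both lines, with filled points at an edgeR adjusted p under 0.05. Of the genes, 8 and 6 have filled points left of 0 in the first and second panels, and none is filled in the TS panel.

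Paclitaxel, which stabilizes microtubules, was the only drug with 2 libraries, and it was compared alone with the same 3 parental libraries. The members called lower were ACLY, ACACA, SCD, ELOVL6, FADS1 and FADS2, and this comparison shares both its PR and its control libraries with the one above. Of the 10 genes, 6 were lower and none higher by edgeR (10.7% of 19430 genes tested were lower and 28.1% called). The median over the 10 was -1.05 and over all genes 0.05. ELOVL6 had the largest difference at -1.87 (SE 0.31, edgeR adjusted p = 0.00364), a 3.66-fold lower level, followed by SCD at -1.31 (SE 0.24, edgeR adjusted p = 0.00543). FADS2 at -1.30 (SE 0.37), FADS1 at -1.06 (SE 0.26), ACACA at -1.04 (SE 0.26) and ACLY at -0.85 (SE 0.25) had edgeR adjusted p-values of 0.0289, 0.0155, 0.0177 and 0.0304. FASN had about the same size of difference, -1.10, but a larger error (SE 0.41, edgeR adjusted p = 0.071). LPIN1 (-0.51, edgeR adjusted p = 0.12), SREBF1 (-0.65, edgeR adjusted p = 0.214) and ACSS2 (-0.27, edgeR adjusted p = 0.53) did not pass.

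With so few libraries the PR count moved with single ones. Leaving out a PR library leaves 1 against 3, with the spread between parental libraries assumed for it. In those fits fewer members were called, and also fewer genes of the whole table. The log2 difference of ELOVL6 was -2.23 without PR replicate 1 and -1.59 without PR replicate 2. That of SCD was -1.45 and -1.19 in the same order. Under upper-quartile scaling 4 members were lower, and so were 1364 of the 19430 genes tested (2085 under the main scaling). The median of all genes moved from 0.05 to 0.30, and 75.4% of calls were higher in place of 61.9%.

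CR and DR had 1 library each, so the drugs were set side by side without a test, as differences in log2(FPKM + 1) from the parental mean. Cisplatin survivors held the lowest SCD, FASN, FADS1, FADS2 and LPIN1 levels of any H460 library. More than 2-fold lower were 5 members in CR (FASN, SCD, ELOVL6, FADS1 and FADS2, where 7.2% of 12331 genes were), 2 in PR (SCD and ELOVL6, of 6.03%) and 1 in DR (ELOVL6, of 5.78%). SCD differed by -1.56 in CR cells, -1.07 for PR and -0.84 for DR. FASN differed by -1.34, -0.76 and -0.66 and FADS2 by -1.33, -0.91 and -0.53 in the same order. ELOVL6 was the only member past 2-fold with all 3 drugs, at -1.22, -1.40 and -1.14. No member was more than 2-fold higher in CR (5.73% of genes), PR (7.19%) or DR (5.6%), and the highest difference was that of ACSS2 in DR at 0.59.

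The members' median was -0.89 for CR, -0.76 for PR and -0.50 for DR, where that of all genes was -0.04, 0.03 and -0.02. The size in DR depended on the scaling, though the members' median was below that of all genes under both scalings. For the second, each library was scaled to the same upper quartile of its detected genes. The median of all genes in DR then became 0.46 and that of the members 0.05. There ACLY, ACACA, FADS2, LPIN1 and SREBF1 changed sign, while SCD (-0.26) and ELOVL6 (-0.65) stayed lower. In CR that scaling gave a median of -0.67 over the members and 0.13 over all genes and turned the sign of SREBF1 alone, and in PR it gave -0.37 and 0.36 and turned ACSS2, LPIN1 and SREBF1.

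**Figure D3:**
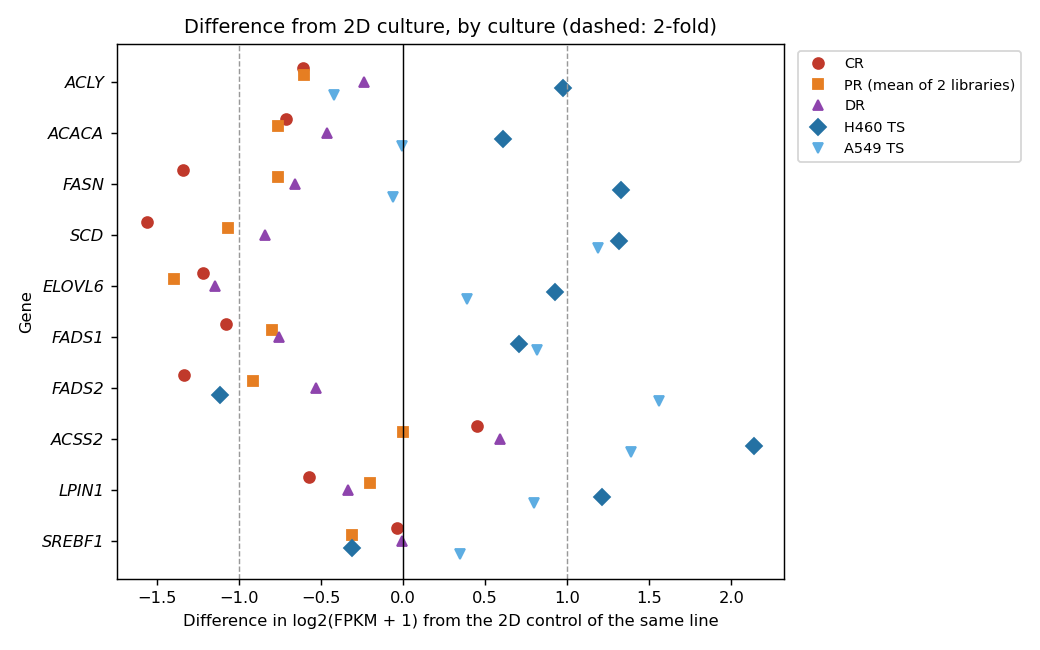
Difference of each gene from the 2D control of the same line in log2(FPKM + 1) (x axis), for CR, PR (mean of 2 libraries), DR, H460 TS and A549 TS cells, with dashed lines at 2-fold and no test. CR, PR and DR points lie left of 0 except for ACSS2 in CR and DR, the H460 TS points lie right of 0 except for FADS2 (-1.11) and SREBF1 (-0.31), and ACLY, FASN and ACACA of A549 TS lie at -0.42, -0.06 and -0.01.

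Growth as TS cells was the second condition of the study, and many of these genes had higher values there, none of which passed the main test. H460 TS cells were above every parental library for 8 of the 10 genes (18.7% of 12331 genes were), and A549 TS cells were above A549 2D for 7 (42.6% of genes were). With both lines in 1 edgeR model and the line as a term, no member passed at an adjusted p under 0.05, and only 0.191% of 18372 genes did in either direction (0.147% were higher and 0.0435% lower). At an unadjusted p under 0.05 there were 5 members (SCD, ELOVL6, FADS1, ACSS2 and LPIN1), all higher, among 1352 genes. The median over the 10 was 0.77 and over all genes -0.01. DESeq2 called 537 genes, among them 4 members (SCD, FADS1, ACSS2 and LPIN1), all higher.

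ACSS2, which showed no drug effect past the test, had the largest TS difference. It was at 39.0 FPKM in H460 TS against 5.69 to 9.78 in parental cells, and at 22.1 in A549 TS against 7.85 in A549 2D. Both TS libraries lay above every 2D library of either line (log2 difference 1.97, SE 0.30, edgeR adjusted p = 0.0816). Without either A549 library the fit rests on H460 alone, 1 TS against 3 parental libraries with the spread taken from the latter, and there the edgeR test gave 2.24 (adjusted p-values of 0.0217 without the 2D and 0.0189 without the TS library). LPIN1 was at 17.2 FPKM in H460 TS against 6.42 to 7.72, and at 12.3 in A549 TS against 6.69. It too was higher in both TS libraries than in any 2D library (log2 difference 1.19, SE 0.20, edgeR adjusted p = 0.0997). SCD was at 336 FPKM in H460 TS against 119 to 147, and at 370 in A549 TS against 162, the highest levels of any member in any library (log2 difference 1.29, SE 0.22, edgeR adjusted p = 0.0997). FADS1 was at 87.8 FPKM in H460 TS against 44.5 to 61.8 and at 128 in A549 TS against 72.3 (log2 difference 0.78, SE 0.23, edgeR adjusted p = 0.376). ELOVL6 was at 19.5 FPKM in H460 TS against 7.34 to 11.5, and in A549 cells, where its level was low, at 7.29 against 5.34 (log2 difference 0.80, SE 0.24, edgeR adjusted p = 0.378).

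ACLY, FASN and ACACA were above the parental range in the H460 TS library and not above A549 2D in the A549 one. ACLY was at 170 FPKM in H460 TS against 77.3 to 99.98, but at 152 in A549 TS against 204 in A549 2D. FASN was at 143 FPKM in H460 TS against 33.5 to 82.3, and at 53.5 in A549 TS against 55.9. ACACA was at 21.4 FPKM in H460 TS against 12.3 to 14.5, and at 20.6 in A549 TS against 20.7. In A549 cells FASN and ACACA thus differed by less than the spread of the parental H460 libraries, and they turned slightly higher (0.04 and 0.09) under upper-quartile scaling. The fitted differences over both lines were 0.48 for ACLY, 0.77 for FASN and 0.40 for ACACA (edgeR adjusted p = 1, 0.918 and 0.947), and without the H460 TS library those of ACLY and FASN were -0.38 and -0.02. With 1 TS library per line the difference between the lines was not tested.

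FADS2 lay on opposite sides of the 2D level in the 2 lines. It was at 9.07 FPKM in H460 TS, below the parental 12.2 to 28.3, and at 331 in A549 TS, above the 112 of A549 2D. The H460 level was 2.43-fold below the parental mean and the A549 level 2.96-fold above 2D, and the fit over both gave -0.01 with the largest error of the set (SE 0.78, edgeR adjusted p = 1). The fitted value was 0.08 without parental replicate 2 and 0.20 without parental replicate 3, and 1.61 without the H460 TS library. FADS1, which starts beside it, was higher in the TS cells of both lines, so the FADS1 to FADS2 ratio of FPKM left its range. It was 1.95 to 3.64 in parental and 2.22 to 3.24 in drug-resistant H460 cells, 9.68 in H460 TS, and 0.648 and 0.387 in the 2D and TS cells of A549. The summed level of the set was 460 FPKM higher in A549 TS than in A549 2D, of which FADS2 made up 219 and SCD 208. SREBF1 was at 22.1 FPKM in H460 TS, inside the parental range, and at 48.5 in A549 TS against 37.9 (log2 difference -0.05, SE 0.43, edgeR adjusted p = 1).

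Counted by fold without a test, 4 members were more than 2-fold higher in H460 TS cells (FASN, SCD, ACSS2 and LPIN1, where 1.48% of 12331 genes were) and FADS2 was more than 2-fold lower (1.91% of genes). In A549 TS cells SCD, FADS2 and ACSS2 were more than 2-fold higher (5.1% of genes) and none was lower (2.56% of genes). The 2 lines also differed in 2D culture. FADS2 was 5.05-fold and ACLY 2.35-fold higher in A549 2D than in the parental H460 mean, and ACACA, FADS1 and SCD lay above the parental range by 1.51, 1.34 and 1.198-fold of its mean. ELOVL6 was below it at 0.536 of the mean, and FASN, ACSS2, LPIN1 and SREBF1 were inside it.

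Genes that feed, extend or oppose the pathway were counted in 7 lists, first in the drug-resistant cells. Of those that supply acetyl-CoA, malonyl-CoA and NADPH, 5 of 9 tested were lower and none higher, with a median log2 difference of -0.62 (0.06 over all genes). They included ACSS1, the mitochondrial relative of ACSS2 (log2 difference -2.01), IDH1 (-0.86) and ME1 (-0.75), which make NADPH, and the citrate exporter SLC25A1 (-0.70), all with edgeR adjusted p-values under the threshold. ACACB, the second acetyl-CoA carboxylase, differed by 0.66 (edgeR adjusted p = 0.109). Among 13 other elongation and desaturation enzymes (median -0.24), 4 were called, close to the 33.8% of all genes tested. Of these 3 were lower, ELOVL2 (-1.13), HACD2 (-1.07) and TECR (-1.01), which complete or repeat the elongation cycle, and ELOVL7 was higher (2.24) from parental levels of 0.177 FPKM or less. Of 6 acyl-CoA synthetases and carriers (median -0.75) 4 were lower, led by the carriers DBI (-1.65) and FABP5 (-1.22), and ACSL6 was higher (3.69) at no more than 0.0718 FPKM. Glycerolipid synthesis had a median of 0.03, with AGPAT5 (-0.75) lower and LPIN3 (1.40), a relative of LPIN1, higher of 12 tested.

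Among the regulators, 3 of 10 were lower and 1 higher, with a median of -0.17, a share of calls close to the 33.8% of all genes tested. INSIG1, a target of SREBP that restrains its release, was at 8.17, 25.9 and 13.9 FPKM in parental and at 2.87 in CR, 4.97 and 5.84 in PR replicates 1 and 2 and 4.02 in DR (log2 difference -1.96, SE 0.33, edgeR adjusted p = 0.0018). SREBF2 was lower as well (-0.79, SE 0.23, edgeR adjusted p = 0.0226), a call lost without CR (-0.76, 0.051), PR replicate 1 (-0.76, 0.0514) or PR replicate 2 (-0.76, 0.0607), under upper-quartile scaling (-0.63, 0.06) and with the library-name form as a term (-0.73, 0.0746). MLXIPL, the carbohydrate-responsive activator of lipogenic genes, differed by 0.25 (edgeR adjusted p = 0.703) at levels under 1 FPKM in all H460 2D libraries. The cholesterol list, targets of SREBP-2, had 15 of 21 genes lower, for example ACAT2 (-2.31) and EBP (-2.03), and TM7SF2 higher (1.19), with a median of -0.77. Fatty acid oxidation, the opposite process, had 5 of 13 genes lower, with HADH (-1.83) first, and 3 higher, with ACADVL (1.06) first, and a median of 0.07.

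In the PR comparison, where 10.7% of all genes tested were lower and 17.4% higher, these lists gave 4 lower genes of 9 tested for supply, 3 of 13 for elongation, 3 of 6 for acyl-CoA synthetases and carriers, 0 of 12 for glycerolipid synthesis, 2 of 10 for the regulators, 10 of 21 for cholesterol and 6 of 13 for oxidation. The higher ones were ELOVL7 (2.62), LPIN3 (1.35) and 1 each among the carriers and the regulators. In the TS comparison the median was 1.63 for the cholesterol list, 0.77 for the members and 0.60 for acyl-CoA synthetases and carriers, and between -0.0013 and 0.21 for the other lists. More than 2-fold higher were 20 of 21 cholesterol genes in H460 TS and 12 of 21 in A549 TS cells. INSIG1 was at 64.3 FPKM in H460 TS, above every parental library, and at 38.01 in A549 TS against 11.6 (log2 difference 1.92, SE 0.41, edgeR adjusted p = 0.171; DESeq2 adjusted p = 0.0041).

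**Figure D4:**
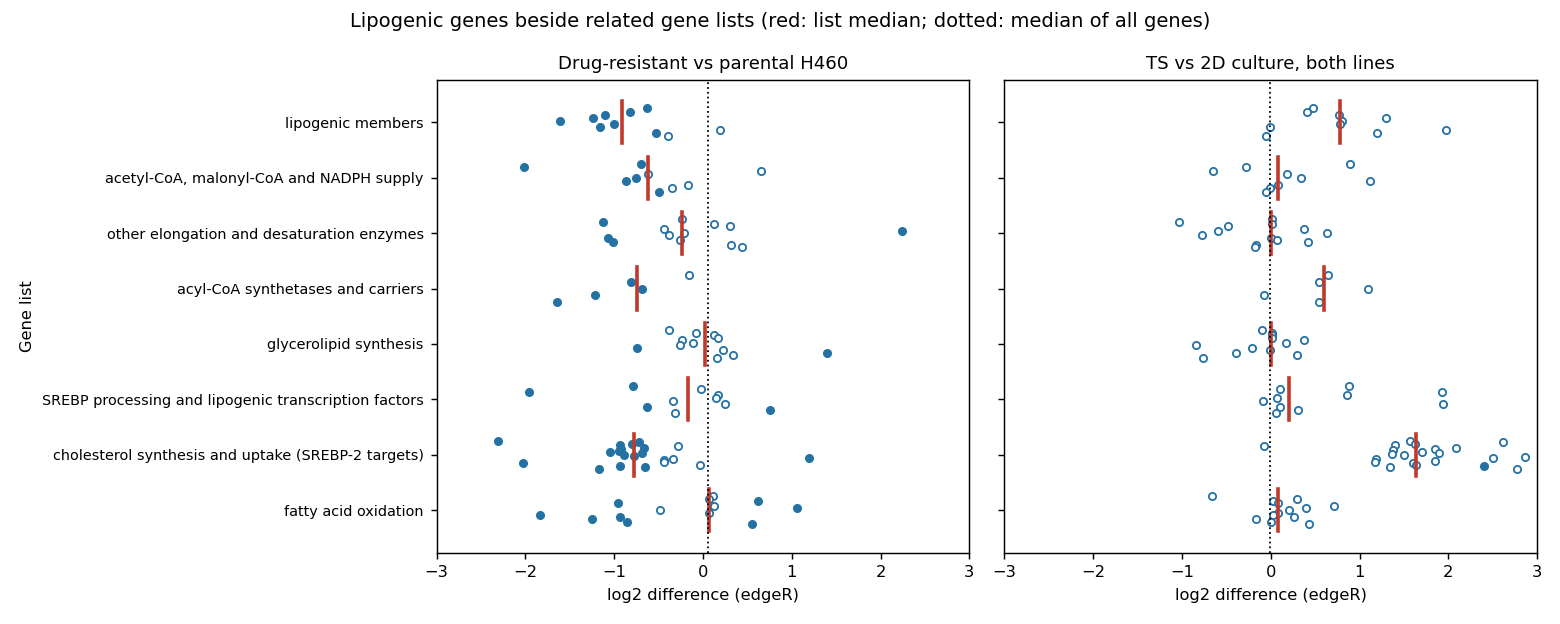
Fitted log2 differences (x axis) of single genes in the member set and the 7 related lists, for drug-resistant against parental H460 cells and for TS against 2D culture, with filled points at an edgeR adjusted p under 0.05, red bars at list medians and a dotted line at the median of all genes. The member median is -0.91 and 0.77 in the 2 panels, and ACSL6 (3.69, left) and ACSL5 (3.24, right) lie outside the axis.

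The 10 genes did not follow 1 pattern equally. Each gene's log2(FPKM + 1) was centred on its mean over the 10 libraries, and the members were averaged. This mean profile was lowest in CR (-0.77) and highest in A549 TS (1.08), with H460 TS at 0.81 and the parental libraries between -0.12 and 0.19. FADS1 and ACACA kept closest to it, with root mean square distances of 0.192 and 0.196, and FADS2 was farthest at 1.27, ahead of ACSS2 at 0.602. Of 7687 other genes with a mean FPKM of at least 5, those nearest to the profile were RBM47 (0.158), HFE (0.208), CD276 (0.220), ACSL3 (0.231) and NUDT8 (0.232). ACSL3, an acyl-CoA synthetase, is on the list of such enzymes above. These distances describe 10 libraries, 8 of them from H460, and carry no test.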

How the data were processed

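Poly(A) RNA libraries of 8 H460 and 2 A549 cultures were analysed. Per the labels' processing notes, the submitters' tools were bcl2fastq 1.8.4, Trimmomatic, HISAT2 2.1.0 and StringTie 2.1.3b on GRCh38, and library strand is not given in the sources used here. The authors deposited unnormalized read counts per gene and FPKM values normalized for length and library size. A count of 2 was commoner than a count of 1, so counts may be estimates. TPM values were deposited by the authors and not used.

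Counts were tested with edgeR 4.0.16 (TMM, filterByExpr, robust quasi-likelihood) in R 4.3.3, with Benjamini-Hochberg adjustment over all genes and a threshold of 0.05. The SE of an edgeR difference was calculated as the absolute log2 difference divided by the square root of its F statistic. CR and DR have 1 library, so the drug-resistant spread includes differences between drugs. Folds of single libraries used log2(FPKM + 1). Differences on this scale understate low genes. Alternatives were DESeq2 1.42.0, limma 3.58.1 with trend, other scalings, no filter, a pseudocount of 0.1 and left-out libraries. The tests were also run on simulated counts with the same variability setting for every gene. That setting is simpler than these data and does not show how the tests behave on them. Replicates differed beyond counting error (chi-square per gene 62.8 to 269). Named were all members, at most 4 called genes per list, INSIG1, SREBF2, MLXIPL and ACACB, and the 5 nearest patterns. Members and lists were chosen with earlier results of these data known. One result of the related lists is not reported here.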

Additional observations from a re-analysis of the deposited data

Results flagged for a closer look

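In 4 genes the TS library of H460 lay outside the parental range on one side and the TS library of A549 on the other side of A549 2D. The share of all genes that did so was not counted, so it is not known whether 4 members exceed it. SREBF1 also had opposite signs (-0.31 in H460 and 0.35 in A549), but its H460 TS value was inside the parental range. In log2(FPKM + 1), FADS2 differed by -1.11 in H460 and 1.56 in A549 cells. ACLY differed by 0.97 in H460 and -0.42 in A549, FASN by 1.33 and -0.064, and ACACA by 0.61 and -0.0080. The A549 values of FASN and ACACA were close to 0 and became positive under upper-quartile scaling, at 0.04 and 0.09, so their opposite signs rest on the scaling, while those of FADS2 and ACLY did not change with it. Each line had 1 TS library, and the difference between the lines was not tested. Among the 4 drug-resistant libraries, ELOVL6 in PR replicate 2 was farther from the other 3 than Dixon's critical value allows in log2(FPKM + 1), at 1.82 with a gap of 0.836 of the range. It was the only such value among the 10 genes, on raw FPKM no value was past the limit, and chance gives about 1 such value in 20 groups.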

How the results depend on the processing

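Of the fitted values of the members and of INSIG1, SREBF2, MLXIPL and ACACB, 469 kept their direction and side of the threshold under the alternatives, 45 lost and 13 gained a call, and 15 changed sign, all of them values that had not passed the test. In the drug comparison, ACSS2 became -0.053 without parental replicate 1 (0.35 without PR replicate 1) and -0.058 with the library-name form as a term, MLXIPL -0.20 without parental replicate 1 (0.66 without parental replicate 3) and SREBF1 0.066 without parental replicate 3 (-0.62 without parental replicate 1). In the PR comparison, ACSS2 became 0.0012 by limma with a pseudocount of 0.1, and MLXIPL -0.0065 without a filter, -0.40 without parental replicate 1 and -0.21 without PR replicate 2 (0.46 without parental replicate 3). In the TS comparison, FADS2 became 0.08 without parental replicate 2, 0.20 without parental replicate 3 and 1.61 without H460 TS (-1.28 without A549 TS), SREBF1 0.25 without parental replicate 3 and 0.36 without H460 TS (-0.35 without A549 TS), and ACLY -0.38 and FASN -0.020 without H460 TS (0.98 and 1.23 without A549 2D).

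The PR comparison called 5466 of 19430 genes with edgeR, and 3026 and 2773 of 12593, under a stricter filter, by limma with pseudocounts of 1 and 0.1, the latter with 3 members lower, and the TS comparison called 35 genes with edgeR but 537 by DESeq2 (4 members higher), 19 by limma with a pseudocount of 0.1 and 70 without a filter. Leaving out 1 library in turn gave 4216 to 6557 genes and 6 to 7 lower members for the drug comparison, 1008 to 6591 genes and 0 to 6 lower members for PR, and 5 to 323 genes and 0 to 1 higher members for TS. PR and parental replicates 1 and 2 share numbers in the labels, but no label says that a number marks a shared origin, and with 2 pairs the correlation of their deviations (r = 0.155 across 13439 genes, which are not independent) does not settle it. With the replicate as a block, 6648 genes and 7 members lower were called, against 6591 and 5 in the same 4 libraries without the block. With parental replicate 1 alone as the control, 3 members were more than 2-fold lower in CR, 1 in PR and 0 in H460 TS, and 1 was more than 2-fold higher in DR. With parental replicate 2 or 3 alone, 4 were lower in PR. Upper-quartile scaling gave 1 lower in PR, 0 lower in DR and 1 higher in DR. The share of all genes past 2-fold was not counted with single controls or under this scaling. These member counts therefore cannot be set against it. The causes of the changes described here were not tested.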
